A study of Mus musculus with 58 samples.

Results

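The mouse mitochondrial genome carries 7 genes for subunits of respiratory complex I, mt-Nd1, mt-Nd2, mt-Nd3, mt-Nd4, mt-Nd4l, mt-Nd5 and mt-Nd6, and their RNA was followed here in mouse prefrontal cortex. The genes were chosen by symbol in the GRCm38 annotation, a rule that uses no measured value, and all 7 were among the 18088 genes measured. All 7 also passed the filter on low values, which asked for 4 or more libraries with a value of 10 or more and left 17925 genes for testing.

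The series holds 58 RNA-seq libraries from C57BL/6J mice that were heterozygous for Tanc2 (HT) or wild type (WT). Pups of each genotype received lithium, fluoxetine or vehicle through the mother's milk from postnatal day 3 to 24, and the tissue was taken at postnatal day 25. There were 9 HT lithium, 10 HT fluoxetine, 10 HT vehicle, 10 WT lithium, 10 WT fluoxetine and 9 WT vehicle libraries, with 5 females and 5 males in each full arm and 4 males in both arms of 9. The labels give no dose, no description of the Tanc2 allele and no litter, so p-values treat the mice as independent although several may have shared a mother. Libraries were made with a stranded kit for polyadenylated mRNA and held 23271044 to 37801615 reads (median 27912100). Levels are normalized counts, that is, reads divided by a size factor of the library.

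Complex I, or NADH dehydrogenase, takes electrons from NADH, passes them to ubiquinone and pumps protons across the inner mitochondrial membrane. It is assembled from subunits coded in the nucleus and in mitochondrial DNA. The mitochondrially coded subunits are all hydrophobic proteins of the membrane arm. Mitochondrial DNA is copied into long RNAs from both strands, which are then cut into single mRNAs, tRNAs and rRNAs, so that most mRNAs of a strand start out in equal numbers. Neurons depend strongly on this pathway for their ATP.

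Of the 7 genes, 6 lie on the plus strand of chromosome M in GRCm38, and each is a single exon with no intron. mt-Nd1 spans bases 2751 to 3707, mt-Nd2 3914 to 4951, mt-Nd3 9459 to 9806, mt-Nd4l 9877 to 10173, mt-Nd4 10167 to 11544 and mt-Nd5 11742 to 13565. mt-Nd6 lies on the minus strand at bases 13552 to 14070 and is the only one of the 13 mitochondrial mRNAs coded there. mt-Nd4l and mt-Nd4 share 7 bases on the same strand, and mt-Nd5 and mt-Nd6 share 14 bases on opposite strands. The ends of mt-Nd5 and mt-Nd6 are shown because within the shared bases only the strand of a read tells these genes apart (GENCODE transcripts of GRCm38, 5′ to 3′, shared bases in capitals).

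mt-Nd5 chrM:13536-13565 plus strand: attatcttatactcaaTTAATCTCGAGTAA

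mt-Nd6 chrM:13552-13581 minus strand: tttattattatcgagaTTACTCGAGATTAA

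Of the 7 genes, 3 have near-identical copies in the nuclear genome, in a stretch of chromosome 1 that derives from mitochondrial DNA. The annotated pseudogene Gm10222 at chr1:24612407-24612700 (minus strand) matches bases 1 to 294 of the 297 of mt-Nd4l at every base. Gm28438 at chr1:24612775-24613119 (minus strand) matches bases 1 to 345 of the 348 of mt-Nd3 at 344 bases and differs by T3C, counted from the first base of mt-Nd3. Gm28439 at chr1:24611535-24612410 (minus strand) matches the first 876 bases of mt-Nd4 at every base. mt-Nd4l is printed whole, and mt-Nd3 and the copies by their ends. Only the letters in capitals set the member transcripts apart from the annotated transcripts of their copies. In mt-Nd4l these are the last 3 bases, and in mt-Nd3 they are base 3 and the last 3 bases. The last 3 bases of mt-Nd4l also lie in the start of mt-Nd4, which Gm28439 matches where it overlaps and runs past the end of Gm10222. Chromosome 1 thus holds them too, and they mark only where the annotation of Gm10222 ends. The bases of chromosome 1 after the end of Gm28438 were not examined.

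mt-Nd4l: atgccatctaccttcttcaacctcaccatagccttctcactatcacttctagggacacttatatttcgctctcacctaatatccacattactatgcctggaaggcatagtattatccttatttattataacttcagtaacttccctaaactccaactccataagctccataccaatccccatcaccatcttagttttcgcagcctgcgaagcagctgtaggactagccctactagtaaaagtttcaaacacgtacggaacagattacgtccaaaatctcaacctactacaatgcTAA

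Gm10222, last 30 bases: tacgtccaaaatctcaacctactacaatgc

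mt-Nd3, first 30 bases: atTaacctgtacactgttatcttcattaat

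Gm28438, first 30 bases: atCaacctgtacactgttatcttcattaat

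mt-Nd3, last 30 bases: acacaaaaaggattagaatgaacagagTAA

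Gm28438, last 30 bases: tgaacacaaaaaggattagaatgaacagag

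Cut into words of 31 bases, mt-Nd4l has 3 of 267 words that no other transcript of the annotation holds, and mt-Nd3 has 6 of 318. In mt-Nd4 502 of 1348 words were unique, in mt-Nd2 872 of 1008, in mt-Nd5 1492 of 1794, in mt-Nd6 453 of 489 and in mt-Nd1 all 927. The authors quantified reads with Salmon, which divides reads that fit several transcripts by estimation. The deposited values of mt-Nd4l and mt-Nd3 are therefore uncertain on their own, and they are given below alone and with the reads of the copy added.

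A feature of the libraries runs through every drug comparison. Gm10221, a processed pseudogene on chromosome 5 all of whose 279 words of 31 bases also occur in Atp5l, had reads in 27 libraries and none in 31. Such reads were present in all 19 lithium libraries, in all 5 females of the HT fluoxetine arm and in 3 of 5 females of the WT fluoxetine arm, and absent from every vehicle library. Lithium against vehicle and presence against absence of Gm10221 reads therefore cannot be told apart. Tanc2 itself does not check the genotype labels. It averaged 7953 ± 853, 8061 ± 463 and 8093 ± 381 normalized counts in HT lithium, fluoxetine and vehicle libraries, against 7468 ± 355, 7529 ± 439 and 7541 ± 387 in the matching WT arms (SD), and it was not lower in HT. Markers of excitatory neurons had a summed level of 10 genes between 136087 and 230520 in every library, and no marker gene of any list was at 0 in every library. Other lists were less even. The 8 olfactory bulb markers summed to 850 to 19702 (median 5080) in libraries with Gm10221 reads and to 683 to 12270 (median 2570) without. The 8 oligodendrocyte markers summed to 67878 to 167463 with and to 62328 to 214454 without. The 8 striatal markers summed to 5361 to 19163 in HT lithium libraries against 4455 to 5602 in HT vehicle, and to 6018 to 19162 in WT lithium against 4587 to 6723 in WT vehicle. Of these 8, Penk and Tac1, neuropeptide genes, were higher with lithium in both genotypes, and the part of dissection in the results below was not tested. In bulk tissue fewer cells of a type and less RNA per cell cannot be told apart.

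Levels differed widely between the genes, also among those of the same strand. Per kilobase of transcript, mt-Nd1, a core subunit at the ubiquinone site, had the highest mean over the 58 libraries, with 190513 normalized counts per kilobase. mt-Nd4, mt-Nd2 and mt-Nd5, the antiporter-like subunits of the proton-pumping arm, had 148860, 112645 and 80623. mt-Nd4l and mt-Nd3, both small membrane subunits, had 50340 and 7349, and mt-Nd6 had 3687. Among all 13 mitochondrial mRNAs these levels took ranks 3, 4, 6, 8, 10, 12 and 13, below mt-Co1 with 499796 per kilobase. Adding the reads of the chromosome 1 copies raised mt-Nd3 to 63073 per kilobase and mt-Nd4l to 77708. The place of mt-Nd3 next to mt-Nd6 at the bottom of the order thus held only for the reads assigned to it alone. In a poly(A) library the level of mt-Nd6 has a further limit, since in human cells its mRNA is known to carry little or no poly(A) tail.

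**Figure D1:**
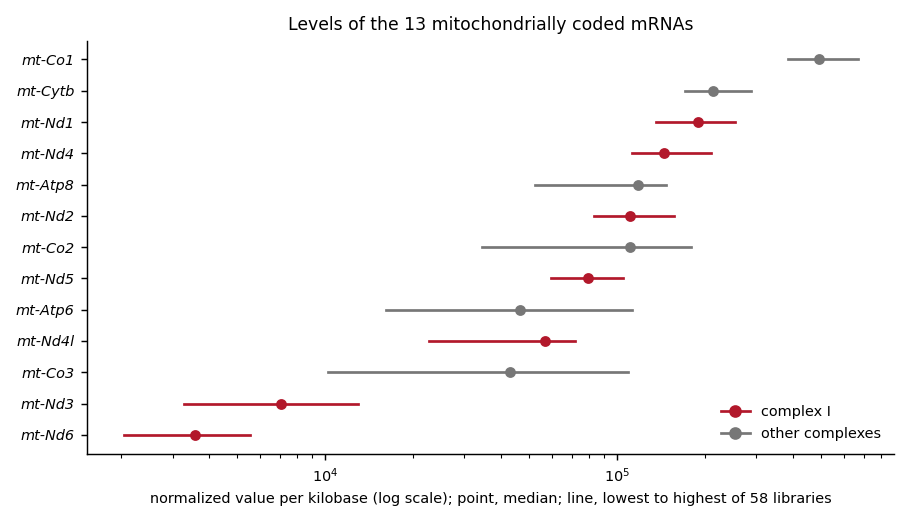
Normalized counts per kilobase (log axis) of the 13 mitochondrially coded mRNAs over 58 libraries; points are medians, lines run from the lowest to the highest library, and complex I genes are in red. mt-Nd1 stands highest among the complex I genes and mt-Nd6 lowest, with mean levels of 190513 and 3687 per kilobase.

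By assigned reads, 3 of the genes varied more between libraries than the other 4. The coefficient of variation over 58 libraries was 10.4% for mt-Nd1, 11.5% for mt-Nd2, 11.1% for mt-Nd4 and 10.2% for mt-Nd5. It was 31.2% for mt-Nd4l, 29.6% for mt-Nd3 and 22.8% for mt-Nd6. With the copy added it was 19.1% for mt-Nd4l and 15.5% for mt-Nd3. Correlations were taken over deviations of log2(value + 1) from the group means, with WT fluoxetine females divided by Gm10221 reads. Differences between groups are therefore left out of them. Pairs among mt-Nd1, mt-Nd2, mt-Nd4 and mt-Nd5 had Pearson correlations of 0.91 to 0.97 across the 58 libraries. Pairs with mt-Nd3, mt-Nd4l or mt-Nd6 had 0.47 to 0.79. These are descriptions, since the values share a library and, for overlapping genes and copies, reads. The same deviations were compared with the mean of the 7 for genes outside the mitochondrial genome with a mean of at least 100. Those that followed it most closely were Gm10925 (r = 0.87), Gm28438 (r = 0.81), Pabpc1 (r = 0.81), Smim10l1 (r = 0.79) and Gm28437 (r = 0.75). Gm10925, Gm28438 and Gm28437 are copies in the same chromosome 1 stretch, and Pabpc1 codes for a cytoplasmic poly(A)-binding protein. All 7 genes together took 2.18 to 2.41% of all reads by arm mean, with single libraries between 1.70 and 2.97%. They made up 35.6 to 36.4% of the reads of the 13 mitochondrial mRNAs by arm mean.

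Lithium against vehicle left the 4 abundant genes without a passing difference in either genotype. mt-Nd1 had 174136 as the lowest, 189780 as the median and 210782 as the highest normalized count in HT lithium libraries, against 160072, 176297 and 193005 in HT vehicle. In WT it had 148757, 176287 and 207137 with lithium, against 130401, 173348 and 199148 with vehicle. The ranges overlapped in both genotypes. The log2 differences were 0.12 ± 0.07 in HT (SE, 95% interval -0.02 to 0.25) and 0.03 ± 0.07 in WT (-0.10 to 0.17). mt-Nd2, mt-Nd4 and mt-Nd5 had log2 differences of 0.08, 0.09 and 0.06 in HT and of -0.01, -0.004 and -0.02 in WT, each with an adjusted p of at least 0.426 by limma. The 95% intervals of these 3 genes ran from -0.07 to 0.23 at their widest in HT and from -0.15 to 0.14 in WT.

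mt-Nd6 was lower with lithium in both genotypes. It codes for a membrane-arm subunit and is read from the opposite strand to the other 6. Its lowest, median and highest normalized counts were 1383, 1586 and 1832 in HT lithium libraries, against 1899, 2218 and 2421 in HT vehicle. All 9 HT lithium libraries lay below all 10 HT vehicle libraries. In WT the values were 1291, 1538 and 1716 with lithium, against 1134, 2138 and 2635 with vehicle. All 10 WT lithium libraries lay below the vehicle median, and 8 of 9 vehicle libraries lay above every lithium library, the exception being WT vehicle female 2 at 1134. The log2 difference by limma was -0.48 ± 0.10 in HT (adjusted p = 0.000309) and -0.41 ± 0.10 in WT (adjusted p = 0.00407).

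mt-Nd4l, a small membrane-arm subunit, was lower with lithium when its own assigned reads were taken. HT lithium libraries had 6721, 9705 and 18714 as lowest, median and highest, against 13587, 18609 and 20002 in HT vehicle. WT lithium libraries had 6996, 9161 and 18688, against 11515, 18293 and 20105 in WT vehicle. Groups overlapped: 6 of 9 HT lithium and 8 of 10 WT lithium libraries lay below every vehicle library of their genotype. The log2 difference was -0.72 ± 0.15 in HT (ratio 0.606, adjusted p = 0.000696 by limma) and -0.82 ± 0.15 in WT (ratio 0.566, adjusted p = 0.000307). mt-Nd3, a small subunit at the joint of the arms, had 1839, 2112 and 3083 with lithium and 2232, 2780 and 4081 with vehicle in HT. In WT it had 1451, 1845 and 2742 with lithium and 1147, 3371 and 4525 with vehicle. The WT vehicle range spanned that of lithium, although all 10 WT lithium libraries lay below the vehicle median. Its log2 difference passed in WT (-0.58 ± 0.16, adjusted p = 0.0140 by limma) and missed the threshold in HT (-0.39 ± 0.16, adjusted p = 0.0791).

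In all, 2 of 7 genes were lower and 0 higher with lithium in HT, where 8.03% of all genes tested were lower, 8.25% higher and 16.3% passed in either direction. In WT 3 of 7 were lower and 0 higher, where 3.13% of all genes were lower, 4.34% higher and 7.47% passed in either direction. The median log2 difference was 0.06 over the 7 genes in HT and -0.02 in WT, against 4.9e-05 and -0.006 over all genes. For a difference of the lithium effect between genotypes, 0 of 7 interactions passed (lowest adjusted p = 0.948 by limma, and 0 with an unadjusted p under 0.05). Of all genes 0.00% passed and 6.67% had an unadjusted p under 0.05. With Gm10221 reads as a term and sex as an additive term, the mt-Nd6 difference was -0.11 in HT and -0.05 in WT, that of mt-Nd4l was -0.22 and -0.33, and that of mt-Nd3 was 0.16 and -0.04. None of the 7 genes passed in that fit, in which 0 of all 17925 genes passed in HT and 3 in WT. Within an arm, Gm10221 reads varied only for fluoxetine, where 5 of 5 HT females, 3 of 5 WT females and no male had them. The size of the Gm10221 term thus came from fluoxetine libraries, and the lithium values above depend on carrying it over.

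**Figure D2:**
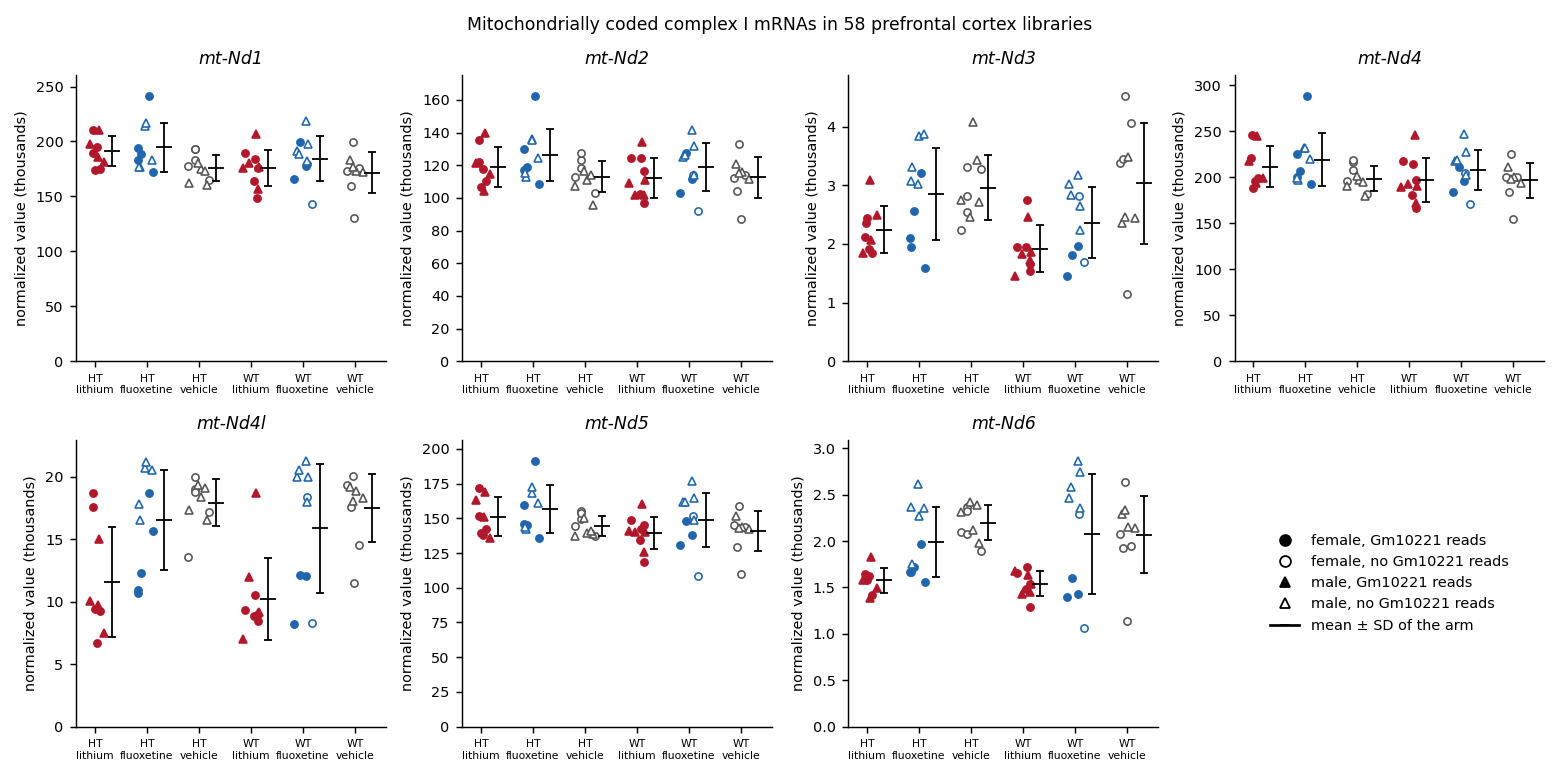
Normalized counts of the 7 complex I genes in each library by arm, in the order lithium, fluoxetine and vehicle for HT and then WT; circles are females, triangles males, filled symbols libraries with Gm10221 reads, and bars the mean ± SD. mt-Nd6 lies lower in the HT lithium libraries (1383 to 1832) than in all HT vehicle libraries (1899 to 2421), while mt-Nd1 ranges overlap.

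Within each sex mt-Nd6 and mt-Nd4l had a negative lithium difference. In fits of 1 sex alone 0 of 7 genes passed in females and 2 of 7 in males of each genotype. The share of all genes that passed in those fits is not given here, so these counts do not show a difference between the sexes. For mt-Nd6 in HT males, lithium libraries had 1495, 1582, 1383 and 1832 normalized counts, and vehicle libraries had 1977, 2119, 2421, 2392 and 2318. Every lithium male was below every vehicle male. The log2 difference was -0.52 in HT males and -0.45 in HT females, and -0.53 in WT males and -0.30 in WT females. For mt-Nd4l it was -0.82, -0.62, -0.82 and -0.83 in the same order. In the fit of all 12 groups by limma, 1 of 7 genes was lower in HT females (3.44% of all genes) and 2 of 7 in HT males (1.21%). In WT it was 1 of 7 in females (0.446%) and 1 of 7 in males (0.229%). Single libraries decided these counts. In HT females the count was 0 without lithium female 4 or 5 or vehicle female 1 or 5, and 2 without lithium female 1 or 3 or vehicle female 2. In HT males it was 0 without lithium male 1, 2 or 3 or vehicle male 3, 4 or 5, and 1 without vehicle male 2. In WT females it was 0 without lithium female 2 or 5 or vehicle female 1, 3 or 5, and 3 without vehicle female 2. In WT males it was 0 without lithium male 1, 3, 4 or 5 or without any 1 of the 4 vehicle males. For a sex difference in the lithium effect, 0 of 7 passed by limma in each genotype (lowest adjusted p = 0.9997, 0 with an unadjusted p under 0.05). Of all genes 0.00% passed in each, and 2.85% in HT and 2.63% in WT had an unadjusted p under 0.05.

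Adding the reads of Gm10222 turned the direction for mt-Nd4l. The sum of mt-Nd4l and Gm10222 had a lowest, median and highest value of 18523, 26276 and 28009 in HT lithium libraries, against 16531, 19079 and 30665 in HT vehicle. In WT it had 21898, 27144 and 29816 with lithium, against 17592, 18842 and 26979 with vehicle. In HT 8 of 9 lithium libraries were above the vehicle median, and 1 vehicle library, HT vehicle female 2 at 30665, exceeded all of them. The log2 difference of the sum was 0.35 ± 0.08 in HT (adjusted p = 0.00240 by limma) and 0.46 ± 0.08 in WT (adjusted p = 0.000210). It passed in all 19 fits that left out 1 library in each genotype, with differences of 0.32 to 0.42 in HT and 0.43 to 0.51 in WT. With Gm10221 reads as a term and sex as an additive term, the difference of the sum was -0.035 in HT (adjusted p = 0.917 by limma) and 0.088 in WT (adjusted p = 0.786). Neither passed, and the HT difference was below 0. Every lithium library and no vehicle library has Gm10221 reads, so that fit can hardly call a gene here. Without copies added it passed 0 of 17925 genes in HT and 3 in WT, so the lost calls are not particular to this sum. In the fit without that term, mt-Nd3 and Gm28438 together differed by -0.04 ± 0.10 in HT and -0.10 ± 0.10 in WT. The adjusted p was 0.815 and 0.631 by limma, so the WT call of mt-Nd3 alone was lost. mt-Nd4 is the same with its copy, since Gm28439 was listed at 0 in all 58 libraries.

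Gm10222, the copy of mt-Nd4l, had reads in 33 of 58 libraries, namely in all 27 with Gm10221 reads and in 6 of 31 without. Its median was 16888 in HT lithium, 5917 in HT fluoxetine and 0 in HT vehicle libraries, and 18347 in WT lithium, 0 in WT fluoxetine and 0 in WT vehicle. As a share of the reads of both, Gm10222 took a median of 64.0% in HT lithium and 66.7% in WT lithium, and 0% in both vehicle arms. HT lithium females 1 and 3, with 909 and 2251 normalized counts of Gm10222, had 17614 and 18714 of mt-Nd4l, whereas HT lithium females 2, 4 and 5, with 16888, 17527 and 18663 of Gm10222, had 9388, 6721 and 9247. No such order ran through every group: HT fluoxetine female 4, with 14892 of Gm10222, had 18683 of mt-Nd4l, more than female 3 with 7036 and 15699. HT fluoxetine female 4 also had the highest mt-Nd4 of all 58 libraries, 288581 against 192631 in female 3. The mt-Nd4l values here are not set relative to mt-Nd4. HT vehicle female 2, with 17078 of Gm10222, had the lowest mt-Nd4l of its arm. Gm28438 held 86.1 to 90.4% of the mt-Nd3 pool by arm mean.

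**Figure D3:**
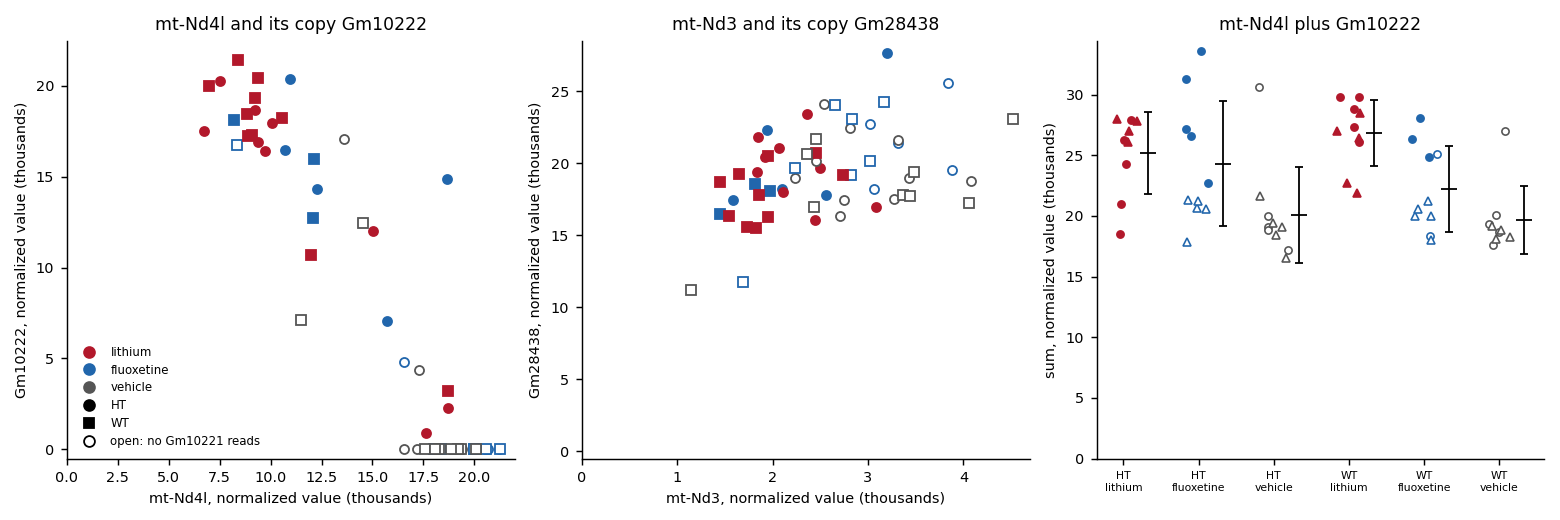
Left and middle, normalized counts of mt-Nd4l against Gm10222 and of mt-Nd3 against Gm28438 in each library (red lithium, blue fluoxetine, grey vehicle; circles HT, squares WT; open symbols have no Gm10221 reads); right, the sum of mt-Nd4l and Gm10222 by arm with mean ± SD. HT lithium females 1 and 3, with 909 and 2251 of Gm10222, had 17614 and 18714 of mt-Nd4l, and the sum is higher with lithium (median 26276 in HT and 27144 in WT) than with vehicle (19079 and 18842).

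For fluoxetine against vehicle no member passed the test in either genotype. In HT 0 of 7 passed, where 3.54% of all genes did, and 2 had an unadjusted p under 0.05 (mt-Nd1 and mt-Nd2), as did 17.0% of all genes. In WT 0 of 7 passed, where 1.38% of all genes did, and 0 had an unadjusted p under 0.05, against 10.5% of all genes. mt-Nd6 had 1558, 1863 and 2619 as lowest, median and highest in HT fluoxetine libraries and 1061, 2324 and 2864 in WT fluoxetine, against the vehicle values given above. Among the HT fluoxetine libraries the sexes overlapped for mt-Nd6. The 5 females had 1664, 1718, 1558, 1974 and 1672 normalized counts of mt-Nd6, and the 5 males, none with Gm10221 reads, had 2619, 2268, 1751, 2354 and 2369. Among the WT fluoxetine libraries every female (1061 to 2294) lay below every male (2354 to 2864). Against vehicle of the same sex, mt-Nd6 differed by -0.32 in WT females and 0.22 in WT males. In HT it differed by -0.33 in females and 0.009 in males, and none of these differences passed. Log2 differences over the 7 genes ran from -0.16 to 0.15 in HT (lowest adjusted p = 0.240 by limma) and from -0.30 to 0.10 in WT (lowest adjusted p = 0.514). The WT count rose to 1 without WT vehicle female 2, when mt-Nd3 passed at -0.47 (adjusted p = 0.0394). No fluoxetine interaction passed: with genotype the lowest adjusted p was 0.830 (0 of 7 with an unadjusted p under 0.05, against 6.29% of all genes, of which 0.00% passed when adjusted), and with sex it was 0.9997 in HT and 0.9998 in WT. With an unadjusted p under 0.05, 3 of 7 differed between sexes in WT and 0 in HT, against 1.84% and 4.26% of all genes. When adjusted, 0.00% of all genes passed in WT and 0.0112% in HT. With Gm10222 added, mt-Nd4l was 0.27 ± 0.08 higher with fluoxetine in HT (adjusted p = 0.0480 by limma), but it passed in 4 of 20 fits that left out 1 library. In WT that sum differed by 0.18 ± 0.08 (adjusted p = 0.420).

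Set directly against fluoxetine, mt-Nd4l and mt-Nd6 were lower with lithium over both sexes, by the reads assigned to each. In HT 2 of 7 genes were lower with lithium, where 3.06% of all genes were lower and 6.25% passed in either direction, and in WT 2 of 7, where 4.26% were lower and 9.55% passed. mt-Nd4l differed by -0.57 ± 0.15 in HT (adjusted p = 0.0181 by limma) and -0.61 ± 0.15 in WT (adjusted p = 0.00509). mt-Nd6 differed by -0.32 ± 0.10 in HT (adjusted p = 0.0314) and -0.36 ± 0.09 in WT (adjusted p = 0.00711). The other 5 genes had differences of -0.30 to -0.02 in HT and -0.28 to -0.07 in WT, with mt-Nd3 lowest in both (adjusted p = 0.255 and 0.263). Both genes differed more in males than in females, but a sex difference was not tested for this comparison. No fluoxetine male had Gm10221 reads, while 5 of 5 HT and 3 of 5 WT fluoxetine females had them. In HT, sex and these reads therefore cannot be told apart among the fluoxetine libraries. In WT females mt-Nd6 averaged 1537 ± 166 normalized counts with lithium and 1556 ± 457 with fluoxetine, whereas in WT males it averaged 1546 ± 108 and 2604 ± 206 (SD, n = 5 each). In fits of 1 sex alone mt-Nd6 differed by 0.022 in WT females and -0.75 in WT males, and by -0.12 in HT females and -0.53 in HT males. mt-Nd4l differed by -0.30 and -0.92 in WT and by -0.23 and -0.91 in HT, again females before males. By limma 0 of 7 genes passed in females of either genotype. In libraries with Gm10221 reads, which hold no fluoxetine males, 0 of 7 passed and mt-Nd6 differed by 0.061 in WT and -0.12 in HT. With Gm10221 reads as a term 0 of 7 passed as well, and in that fit 218 of all genes passed in HT and 908 in WT. The share of all genes that passed in females alone or in libraries with Gm10221 reads is not given here. The HT calls also rested on single libraries. mt-Nd6 missed the threshold (adjusted p of 0.0517 to 0.0801) without HT fluoxetine female 4 or male 1, 4 or 5, or without HT lithium female 5 or male 1, 2 or 3. mt-Nd4l missed it without HT lithium female 4 (0.0576) or male 1 (0.0525). With Gm10222 added, mt-Nd4l was not lower with lithium: the difference was 0.08 ± 0.08 in HT (adjusted p = 0.616) and 0.28 ± 0.08 in WT (adjusted p = 0.0196). Both comparisons with lithium use the same lithium libraries, so they are not independent of each other.

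**Figure D4:**
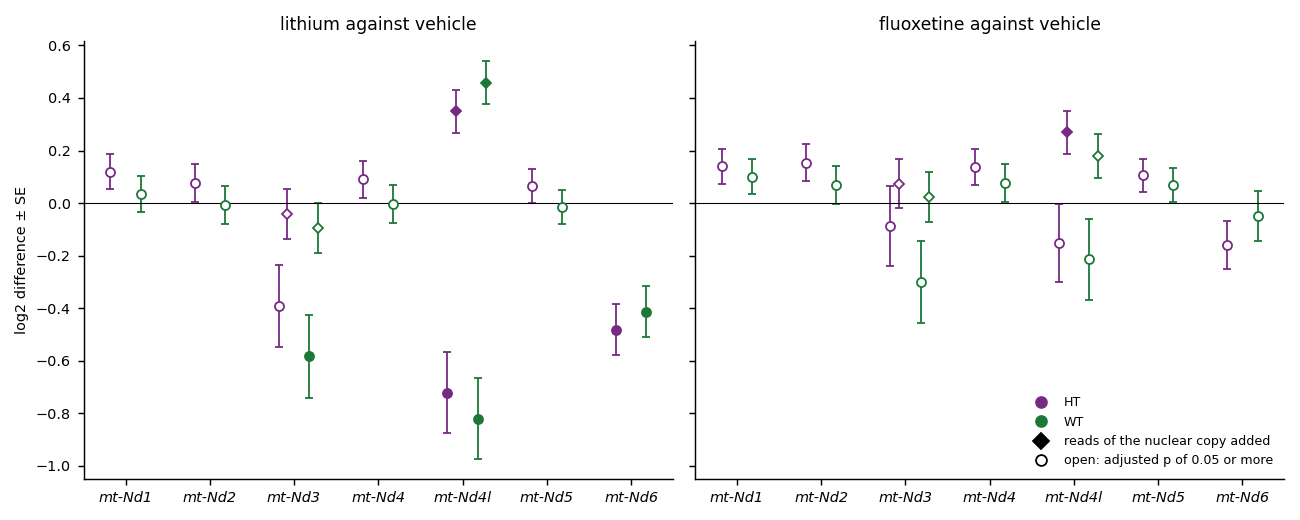
Log2 differences of the 7 genes for each drug against vehicle in HT (purple) and WT (green), as circles with SE bars. Diamonds add the reads of the chromosome 1 copies, and open symbols have an adjusted p of 0.05 or more. With lithium against vehicle, mt-Nd4l stands at -0.72 in HT and -0.82 in WT alone and at 0.35 and 0.46 with its copy, while mt-Nd6 stands at -0.48 and -0.41.

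None of the 7 genes passed for genotype under any drug. HT against WT gave log2 differences of -0.01 to 0.26 under fluoxetine, 0.03 to 0.24 under lithium and 0.002 to 0.10 under vehicle. By limma 0 of 7 passed in each, 0 had an unadjusted p under 0.05, and the lowest adjusted p was 0.847, 0.483 and 0.947. The share of all genes that passed was 0.00% in each, and 6.21%, 11.2% and 4.54% had an unadjusted p under 0.05. The 95% interval under vehicle was -0.09 to 0.17 for mt-Nd1 and -0.09 to 0.29 for mt-Nd6. In the order of arm means, mt-Nd6 had its lowest mean in WT lithium (1542) and its highest in HT vehicle (2200), and mt-Nd4l likewise (10211 and 17935). Between neighbours in the order for mt-Nd6, only HT lithium and HT fluoxetine, with a gap of 419, differed by more than the SD of the arms. For the other 6 genes no neighbouring arms differed by more than that spread.

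Read by Gm10221 instead of by drug, mt-Nd6 and the assigned reads of mt-Nd4l and mt-Nd3 had lower medians where Gm10221 was read. mt-Nd6 had a median of 1586 (1291 to 1975) in the 27 libraries where Gm10221 was read, against 2294 (1061 to 2864) in the other 31, and 25 of the 31 lay above all 27. mt-Nd4l had medians of 10081 with and 18806 without, and 16 of 31 lay above all 27. mt-Nd3 had medians of 1948 with and 3018 without, and 12 of 31 lay above all 27. With the copy added, mt-Nd4l went the other way and mt-Nd3 overlapped. The sum of mt-Nd4l and Gm10222 had medians of 26973 with and 19346 without, and 26 of the 27 lay above the median of the 31. The sum of mt-Nd3 and Gm28438 had medians of 20361 with and 22811 without, and 0 of 31 lay above all 27. mt-Nd4, in contrast, had medians of 198775 with and 200464 without, and no library without lay above all those with. These groups were set by reads in the data and share most of their libraries with the drug arms, so they carry no test.

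The WT fluoxetine females are the only group that holds both kinds of library. Where Gm10221 was read, in 3 females, mt-Nd6 had 1605, 1393 and 1426 normalized counts, against 2294 and 1061 in the 2 females where it was not. For mt-Nd4l the values were 12128, 8198 and 12082 with, and 18369 and 8328 without. One library without Gm10221 reads, WT fluoxetine female 5, was thus as low as those with, and it also had 16753 normalized counts of Gm10222. It was the library with the lowest mean rank over the 7 genes.

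The ratio of mt-Nd5 to mt-Nd6, genes that meet tail to tail on opposite strands, sets the strands against each other within a library. Its log2 value had medians of 6.53 in HT lithium, 6.37 in HT fluoxetine and 6.04 in HT vehicle libraries, and of 6.51, 6.04 and 6.06 in WT lithium, fluoxetine and vehicle. All 9 HT lithium libraries lay above all 10 HT vehicle libraries. In WT all 10 lithium libraries lay above the vehicle median, and 2 of them above every vehicle library. By Gm10221 reads the medians were 6.53 (6.38 to 6.77) with such reads and 6.05 (5.88 to 6.67) without them. Of the 31 libraries without, 29 lay below all 27 with, and the exceptions were WT vehicle female 2 and WT fluoxetine female 5. mt-Nd5 itself had a median of 142595 with and 145283 without.

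**Figure D5:**
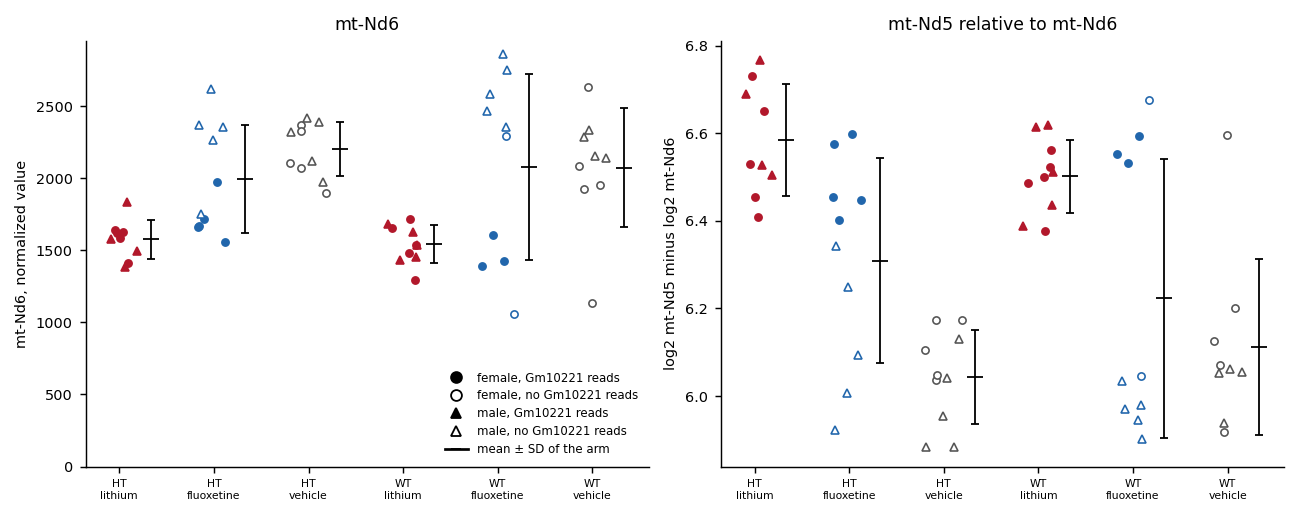
Left, normalized counts of mt-Nd6, and right, the log2 ratio of mt-Nd5 to mt-Nd6, in each library by arm (circles females, triangles males, filled with Gm10221 reads, bars mean ± SD). The ratio is higher where Gm10221 was read (6.38 to 6.77) than in 29 of the 31 other libraries.

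Other mitochondrial mRNAs passed in both directions by their assigned reads. Of 6, mt-Atp6 (1.26 ± 0.19, adjusted p = 7.53e-06 by limma) and mt-Co3 (0.69 ± 0.24, adjusted p = 0.0413) were higher and mt-Co2 (-0.76 ± 0.18, adjusted p = 0.00187) lower with lithium in HT. In WT mt-Atp6 was higher (1.14 ± 0.19, adjusted p = 7.84e-05) and mt-Co2 lower (-0.70 ± 0.18, adjusted p = 0.00903). mt-Cytb, mt-Co1 and mt-Atp8 did not pass in either genotype, nor did the 2 ribosomal RNAs. mt-Atp6 shares 648 of its 651 words of 31 bases with Gm10925, mt-Co2 651 of 654 with Gm28661 and mt-Co3 753 of 754 with Gm28437, all on chromosome 1, so the division of reads limits their values as it does those of mt-Nd4l. With the copy added the ratios of the arm means were nearer to 1 in both genotypes, and these sums were not tested. mt-Atp6 with Gm10925 averaged 261788 ± 24759 normalized counts in HT lithium and 216396 ± 15162 in HT vehicle libraries, and 240211 ± 26269 and 205019 ± 23086 in WT (SD). mt-Co2 with Gm28661 averaged 236990 ± 38053 and 252557 ± 32361 in HT, and 210739 ± 38988 and 234779 ± 38930 in WT, again lithium before vehicle. mt-Co3 with Gm28437 averaged 251727 ± 27035 and 245396 ± 23477 in HT, and 236785 ± 26404 and 235818 ± 29452 in WT.

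Nuclear-coded subunits of complex I went up with lithium where they passed. Of the 7 core subunits that carry the redox centres of the matrix arm, 2 were higher in HT and 1 in WT, and 0 lower in either, where 8.25% and 4.34% of all genes were higher. Ndufv2, an iron-sulfur subunit, averaged 2945 normalized counts in HT lithium and 2201 in HT vehicle libraries (0.42 ± 0.04, adjusted p = 5.12e-09 by limma), and it differed by 0.34 ± 0.04 in WT (adjusted p = 3.65e-07). Ndufs1, the largest iron-sulfur subunit, was 0.12 ± 0.04 higher in HT (adjusted p = 0.0305). Of 30 accessory subunits, 18 were higher with lithium in HT and 12 in WT, and 0 were lower in either, with a median log2 difference of 0.17 in both. The share of all genes higher was 8.25% in HT and 4.34% in WT. Ndufc2 differed by 0.40 in HT and 0.36 in WT, Ndufb2 by 0.40 and 0.41, Ndufab1, the mitochondrial acyl carrier protein, by 0.37 and 0.27, and Ndufa3 by 0.27 and 0.37. With fluoxetine 5 of 30 were higher in HT and 0 in WT, where 1.46% and 0.469% of all genes were higher. With Gm10221 reads as a term 0 of 30 passed for lithium against vehicle in either genotype, with medians of 0.19 and 0.18. In that fit 0 of all genes passed in HT and 3 in WT.

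Among factors that build complex I or handle mitochondrial RNA few passed, and their counts stand beside shares over all genes with lithium of 8.25% higher and 8.03% lower in HT and 4.34% higher and 3.13% lower in WT. Of 17 assembly factors tested, Ndufaf1 (0.18 ± 0.04) and Ndufaf6 (0.27 ± 0.08) were higher with lithium in HT, and Acad9 was lower in WT (-0.09 ± 0.03, adjusted p = 0.0398 by limma). Of 17 genes for mitochondrial transcription and DNA maintenance, 1 was lower in HT, Twnk, the mitochondrial DNA helicase (-0.20 ± 0.05), and 0 passed in WT. Of 20 genes for RNA processing and stability, 3 were higher in HT and 1 in WT. Supv3l1, a helicase of the mitochondrial RNA-degrading complex, was higher in both (0.17 ± 0.04 in HT, 0.13 ± 0.04 in WT). Lrpprc, which stabilises mitochondrial mRNAs, was higher in HT (0.11 ± 0.04, adjusted p = 0.0256) and Mtpap, the mitochondrial poly(A) polymerase, likewise (0.11 ± 0.04, adjusted p = 0.0460). Of 8 regulators of mitochondrial biogenesis, Ppargc1b and Pprc1, both of the PGC-1 coactivator family, were lower with lithium in HT (-0.28 and -0.17) and with fluoxetine in HT (-0.42 and -0.22) and in WT (-0.37 and -0.30), and 0 passed with lithium in WT. With fluoxetine 2.09% of all genes were lower in HT and 0.915% in WT.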

How the data were processed

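Bulk RNA of mouse prefrontal cortex was sequenced in 58 libraries. The deposited table holds a signal for each gene, reads divided by a size factor of the library; the authors made it, per the submitters' processing notes, on GRCm38 with DESeq2 1.19.11 in R 3.6.0 after Salmon 0.11.2, with options not given in the sources used here. Salmon's division of reads between near-identical transcripts, and the size factors, which assume that most genes do not change, shape these values. Whole reads were recovered for 100% of values within 0.01; in 11 columns the step was too near 1 to tell reads from rounded values.

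Values were tested with limma 3.58.1 (trend, two-sided) in R 4.3.3 on log2(value + 1) in 1 fit of 12 groups over 17925 genes, females and males weighing equally, with Benjamini-Hochberg adjustment over all genes and a threshold of 0.05. Fold changes on that scale understate those of low genes. The script was checked on simulated data. edgeR 4.0.16 and DESeq2 1.42.0 on recovered reads, other filters, pseudocounts and fits, and leaving out libraries were alternatives. Identifiers of 18077 genes were found in the GENCODE annotation. Sex labels of 30 females and 28 males matched, and no 2 of 1653 library pairs agreed within sampling noise.

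Named are the 7 genes, their copies, the 5 genes most alike and passing list genes. The genes and lists were chosen with earlier results of these data known.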

Additional observations from a re-analysis of the deposited data

Results flagged for a closer look

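The 7 genes were checked in each of the 12 groups of 4 or 5 mice of 1 genotype, drug and sex. In 4 of these 84 combinations of gene and group 1 library lay far from the rest, where chance gives about 1 in 20. WT lithium male 2 had the highest mt-Nd2, 133955 normalized counts against 101694 to 110749 in the other 4 libraries, and the highest mt-Nd4, 245711 against 172207 to 192979. WT vehicle male 3 had the highest mt-Nd3, 3477 against 2363 to 2460 in the other 3. HT lithium female 5 had the lowest mt-Nd6, 1414 against 1586 to 1644 in the other 4.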

How the results depend on the processing

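Lithium against vehicle gave 2 of 7 genes in HT and 3 in WT under edgeR and in each fit that left out 1 library, and 3 in both under DESeq2. Replicate numbers do not pair the mice (309 pairs with the same number, median r = 0.0017), and with them as a replicate block the counts were again 2 and 3. Except where stated, the share of all genes that passed in these and the following alternatives is not given here. Their counts therefore cannot be set against all genes.

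With Gm10221 reads as a term all 4 lithium comparisons had 0 of the 7 genes passing. Of all genes, 218 in HT and 908 in WT passed for lithium against fluoxetine in that fit, and 0 and 3 against vehicle. mt-Nd3 then changed sign for lithium in HT (0.16), fluoxetine in HT (0.19) and lithium against fluoxetine in WT (0.11), mt-Nd4l for fluoxetine in HT (0.089) and mt-Nd6 for fluoxetine in HT (0.020) and WT (0.065).

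With copies added (an alternative, like the next, sex as an additive term and the 3 libraries below, chosen after seeing the data), 1 gene passed for fluoxetine in HT, 1 for lithium against fluoxetine in HT and 1 for fluoxetine in HT females. mt-Nd4l changed sign for lithium (0.35 in HT, 0.46 in WT), fluoxetine (0.27, 0.18) and lithium against fluoxetine (0.080, 0.28), and mt-Nd3 for fluoxetine (0.074, 0.022). With copies and the Gm10221 term, the 4 lithium counts were 0, and signs changed for mt-Nd3 with lithium (0.072, 0.023) and fluoxetine (0.13, 0.061), mt-Nd4l with lithium in WT (0.088), fluoxetine (0.085, 0.066) and lithium against fluoxetine in WT (0.022), and mt-Nd6 with fluoxetine (0.020, 0.065).

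Females only gave 0 genes in the 4 lithium comparisons and for each genotype, with mt-Nd3 (0.021) and mt-Nd6 (0.022) above 0 for lithium against fluoxetine in WT. Males only gave 2 genes for lithium in WT, and above 0 for fluoxetine were mt-Nd3 (0.17 in HT, 0.059 in WT), mt-Nd4l (0.090, 0.0998) and mt-Nd6 (0.0088, 0.22). Libraries with Gm10221 reads gave 0 genes for lithium against fluoxetine in both genotypes, with mt-Nd3 (0.11) and mt-Nd6 (0.061) above 0 in WT. In libraries without, mt-Nd3 was 0.19 with fluoxetine in HT and mt-Nd6 0.071 in WT. The share of all genes that passed in these fits is not given here.

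Sex as an additive term, or only the groups compared, left 1 gene for lithium against fluoxetine in HT, and the second gave 1 for fluoxetine in HT females. Array weights gave 2 genes there and 2 for lithium in WT females and in WT males, with mt-Nd6 at 0.066 for fluoxetine in WT. The stricter filter gave 2 for lithium in WT males, edgeR and DESeq2 2 in WT females, and DESeq2 1 for fluoxetine in WT females. Without the 3 libraries lowest over these genes (WT fluoxetine female 5, WT lithium female 5 and WT vehicle female 2), these counts were 1 for fluoxetine in WT females and 2 for lithium in either WT sex.

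With single libraries left out, counts ran from 0 to 1 for fluoxetine in WT, 0 to 2 for lithium against fluoxetine in HT, 0 to 2 for fluoxetine in WT females, and for lithium from 0 to 2 in HT females and males, 0 to 3 in WT females and 0 to 1 in WT males. The fluoxetine difference of mt-Nd6 in WT ran from -0.14 to 0.015, above 0 without WT fluoxetine female 5 or WT vehicle female 1. The count of 2 for fluoxetine in WT females came without WT vehicle female 2. The cause of these changes was not tested. No gene had under 1061 normalized counts in a library, and how reads were divided between copies bears on mt-Nd3 and mt-Nd4l.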
